A study of Mus musculus with 16 samples.

Results

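The genes described here are 10 genes of the skin that make, move and finish barrier ceramides and acylceramides: Abca12, Cers3, Elovl4, Elovl1, Alox12b, Aloxe3, Pnpla1, Cyp4f39, Ugcg and Degs2. They were chosen by name, as the rows of the table of normalised read counts that carry these symbols, and all 10 were found among its 32078 genes. All 10 were also among the 19189 genes tested, which reached a value of 10 or more in 2 or more libraries. The series measured RNA of whole skin from 7 week old mice in 16 libraries, which form 8 groups of 2. Of these groups, 4 carry the names SDS_D0, SDS_D1, SDS_D3 and SDS_D5, and the other 4 carry the same names with +Topsym. SDS is sodium dodecyl sulphate, a detergent used to irritate skin, and Topsym is a preparation of the glucocorticoid fluocinonide. A group is called SDS alone or SDS with Topsym here, with its day. The labels speak of topical treatment over 4 days and give neither the hour of each application nor what the day 0 groups had received, and they name no group without SDS in its title. The sources used here do not give strain, sex or the number of mice behind a library, and the tests measure only the spread between 2 libraries, which may be technical.

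The outermost layer of the epidermis holds water with sheets of lipid in which ceramides are the main class. Keratinocytes that leave the basal layer lengthen fatty acids to unusual chain lengths, hydroxylate the far end, join them to a sphingoid base and attach linoleate, which gives acylceramide. The product is glucosylated, packed into lamellar granules, secreted, oxidised by lipoxygenases and in part bound to the cornified envelope, and inherited loss of several of these genes causes ichthyosis or a lethal barrier defect in newborns.

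Most of the 10 genes rose at day 1 in both arms. At day 3 of SDS alone 7 of them were near or under their day 0 level, while at day 3 with Topsym 9 stood above it, and at day 5 all 10 were above it in both arms, a direction that turns for Aloxe3 when libraries are scaled to equal totals. Elovl4 departed from this course by falling at days 1 and 3 of SDS alone from a high start, and Aloxe3 by its peak at day 1. Cers3, Ugcg and Degs2 were above day 0 at day 3 of SDS alone as well, and Degs2 rose more than any other member. A normalised read is a read divided by the library's size factor, as deposited.

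**Figure D1:**
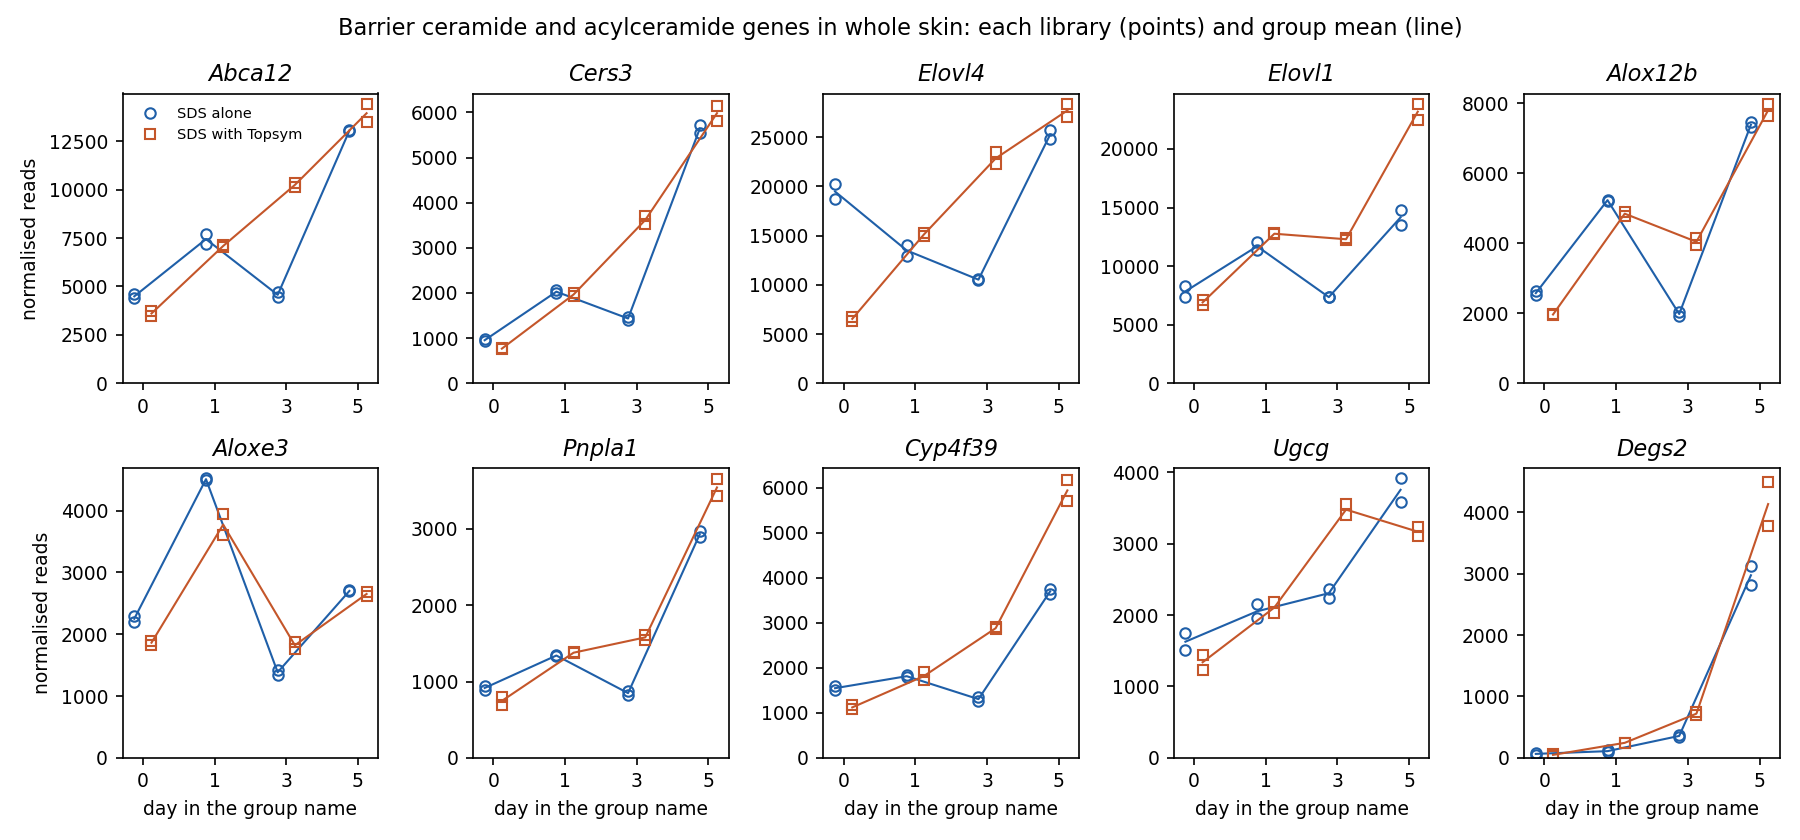
Normalised reads (vertical axis, from 0) of each of the 10 genes in each library (points) against the day in the group name, with lines through the group means, for SDS alone and SDS with Topsym. At day 3 the 2 libraries with Topsym lie above the 2 without it in all 10 panels.

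The positions of the genes are from the GENCODE M21 annotation of GRCm38. Abca12 lies on chromosome 1, 71242276 to 71414910, minus strand, and Cers3 on chromosome 7, 66743504 to 66823691, plus strand. Elovl4 lies on chromosome 9, 83778692 to 83806277, minus strand, and Elovl1 on chromosome 4, 118428093 to 118432953, plus strand. Ugcg is on the same chromosome, 59189257 to 59222833, plus strand. Aloxe3 (69125896 to 69149115) and Alox12b (69156989 to 69169792) are neighbours on the plus strand of chromosome 11, separated by 7873 bases. Chromosome 17 carries Pnpla1, 28858411 to 28890309, and Cyp4f39, 32452723 to 32493320, both on the plus strand. Degs2 is on chromosome 12, 108678711 to 108702315, minus strand. Exons of Degs2 share 278 bases with exons of Evl on the opposite strand, 10.8% of its exon length, and Evl had 105 to 1149 reads per library. Pnpla1 shares 644 bases with its antisense gene Pnpla1os, which had 0 to 8 reads, and Elovl1 shares 53 bases with Cdc20. Whether the counting used strand is not stated, so reads in those shared stretches cannot be assigned with certainty. Cyp4f39 belongs to a family of similar genes, and reads shared with a relative could be counted for either.

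Promoter sequences from RefSeq (GRCm38.p6) were found for 9 of the 10 genes; Aloxe3 is not among them. The 4 below are shown because these genes took different courses: Alox12b followed the common course, Cers3 did so except for a level above day 0 at day 3 of SDS alone, Elovl4 had the largest difference between the day 0 groups, and Degs2 changed the most. Each is the 250 bases before the RefSeq start, 5′ to 3′ on the strand of the gene, with matches in capitals. For Alox12b and Degs2 the RefSeq start lies inside the GENCODE positions given above, so the end of each sequence falls within the gene as placed there.
Cers3, chr7:66743254-66743503, plus strand: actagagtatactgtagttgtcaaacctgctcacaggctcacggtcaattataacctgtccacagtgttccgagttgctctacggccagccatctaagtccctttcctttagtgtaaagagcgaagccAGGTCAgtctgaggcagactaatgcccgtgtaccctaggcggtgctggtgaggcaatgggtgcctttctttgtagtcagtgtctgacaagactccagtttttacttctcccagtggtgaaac
Alox12b, chr11:69156822-69157071, plus strand: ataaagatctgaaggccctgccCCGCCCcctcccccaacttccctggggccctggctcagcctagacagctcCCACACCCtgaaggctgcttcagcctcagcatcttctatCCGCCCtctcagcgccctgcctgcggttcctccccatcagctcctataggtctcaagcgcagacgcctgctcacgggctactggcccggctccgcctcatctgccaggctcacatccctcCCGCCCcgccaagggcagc
Elovl4, chr9:83806306-83806555, minus strand: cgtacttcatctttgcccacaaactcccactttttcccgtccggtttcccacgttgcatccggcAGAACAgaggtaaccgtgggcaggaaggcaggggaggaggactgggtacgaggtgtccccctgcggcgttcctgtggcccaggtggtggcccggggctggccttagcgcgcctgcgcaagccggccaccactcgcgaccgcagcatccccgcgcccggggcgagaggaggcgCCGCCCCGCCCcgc
Degs2, chr12:108702307-108702556, minus strand: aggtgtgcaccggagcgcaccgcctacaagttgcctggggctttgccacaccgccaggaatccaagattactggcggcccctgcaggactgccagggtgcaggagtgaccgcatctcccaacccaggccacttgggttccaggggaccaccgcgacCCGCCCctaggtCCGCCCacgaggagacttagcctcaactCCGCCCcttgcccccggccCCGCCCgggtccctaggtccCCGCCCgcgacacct
The capitals mark AGGTCA, the core of many nuclear receptor sites, in Cers3; CCACACCC, a Kruppel-like factor motif, and CCGCCC, the reverse of the GC box GGGCGG, in Alox12b; AGAACA, the core of glucocorticoid receptor sites, and CCGCCC in Elovl4, where the last pair of matches overlaps; and CCGCCC in Degs2.

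Motifs were searched on both strands of a 300 base window, 250 before and 50 after the start, in 10 promoters of the 9 genes (Elovl1 has 2) and in 32851 promoters in all. The GC box was in 6 of the 10, those of Elovl4, Elovl1, Alox12b, Ugcg and Degs2, and in 35.7% of all promoters. AGAACA was in that of Elovl4 and in 19.0% of all, and AGGTCA was in those of Cers3 and Elovl1 and in 16.3% of all. CCACACCC was found in Elovl1 and Alox12b and in 3.56% of all, and the E-box CACGTG in Elovl4 and in 7.15% of all. No member window held the Grainyhead motif AACCGGTT (0.146% of all), the AP-1 site TGANTCA (7.81%), TATAAA (13.6%) or TTGCGCAA (0.183%). The GC content of the 250 bases ranged from 49.6% in Cers3 to 80.4% in Ugcg, and the median over all promoters, in the 300 base window, was 52.4%.

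The libraries held 15199656 to 32066246 reads assigned to genes, and 19885 to 20774 genes were detected at day 5 against 22875 to 23740 on the other days. At day 5 the 10 most abundant genes took 10.3 to 14.8% of the normalised reads, against 4.91 to 7.06% before. Skin is a mixture, and in such bulk RNA fewer cells of a type and less RNA per cell cannot be told apart. Summed over 6 basal keratinocyte markers, the level was 344549 and 352837 at day 0 of SDS alone, 241385 and 236998 at day 3 and 843454 and 893795 at day 5, and 365082 and 368833, 606410 and 596590 and 1290539 and 1228542 with Topsym. Krt14 makes up most of the day 5 sums, and at day 5 against day 0 4 of the 6 markers were higher and 2 lower in each arm. The lower ones were Krt15 (log2 -1.97 in SDS alone and -3.52 with Topsym) and Col17a1 (-0.087 and -0.49). Of all genes tested 30.7% were higher and 35.8% lower in SDS alone, and 32.8% and 37.5% with Topsym. The count of lower basal markers lies near those shares. Summed over 6 fibroblast markers the level went down, from 289910 and 298533 to 14318 and 14108 in SDS alone and from 414248 and 407197 to 5958 and 6077 with Topsym. All 6 adipocyte and all 5 endothelial markers were lower at day 5 than at day 0 in both arms, beside the 35.8% and 37.5% of all genes. None of the 6 basal or 14 suprabasal keratinocyte markers was at 0 in any group, and Krt14, a basal keratin, was at 95786 and 99024 at day 0 and 564512 and 593095 at day 5 of SDS alone, and Krt10, a suprabasal one, at 184379 and 189752 and 301610 and 318695.

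The day 0 groups differed in markers of hair follicle, gland, muscle, fat and fibroblasts. Summed over 6 inner root sheath markers of the hair follicle, SDS_D0+Topsym held 17558 and 17529 normalised reads and SDS_D0 held 308 and 286, with Krt73 and Krt25 at 0 in both libraries of SDS_D0. The 7 other groups lay between 133.2 and 849.9 per library. Summed over 8 sebaceous gland markers, SDS_D0 held 16849 and 16661 and SDS_D0+Topsym 4112 and 4072, and all 8 were lower in the latter. So were all 6 skeletal muscle markers (median log2 -1.42; summed level 397893 and 392446 in SDS_D0 and 139864 and 136463 in SDS_D0+Topsym), 5 of 6 adipocyte markers (median -1.13; 15205 and 16274 and 7078 and 7147) and 3 of 5 endothelial markers (median -0.59). Of all genes tested 11.2% were lower in that comparison. Summed over 6 fibroblast markers SDS_D0+Topsym was the higher, at 414248 and 407197 against 289910 and 298533 in SDS_D0. The part of these differences in the results that use day 0 was not tested. Of 8 glucocorticoid target genes, listed as a check of the Topsym label, 8 were higher at day 1 than at day 0 in SDS alone (median log2 1.39), beside 12.8% of all genes tested. With Topsym 7 were (median 1.24), beside 20.3%. At day 1 itself 1 of the 8 was higher with Topsym than without, beside 5.51% of all genes tested. At day 0, 1 was higher and 2 lower with Topsym, beside 10.8% and 11.2% of all genes. At day 5, 1 was higher and 6 lower (median -1.02), beside 22.6% and 24.2%. On no day was more than 1 of the 8 called higher in the libraries labelled Topsym, so the list does not bear out that label. The 8 also rose in SDS alone, the hours of application are not given, and the label itself was not tested. Fkbp5, a chaperone that glucocorticoids induce, was at 2246 and 2206 at day 0 and 10914 and 10833 at day 1 of SDS alone, and at 1724 and 1785 and 12105 and 12164 with Topsym. At day 3 all 8 were lower with Topsym than without it, beside 22.9% of all genes. Among the 8 was Tsc22d3, at 9388 and 9120 without Topsym and 5456 and 5299 with it.

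**Figure D2:**
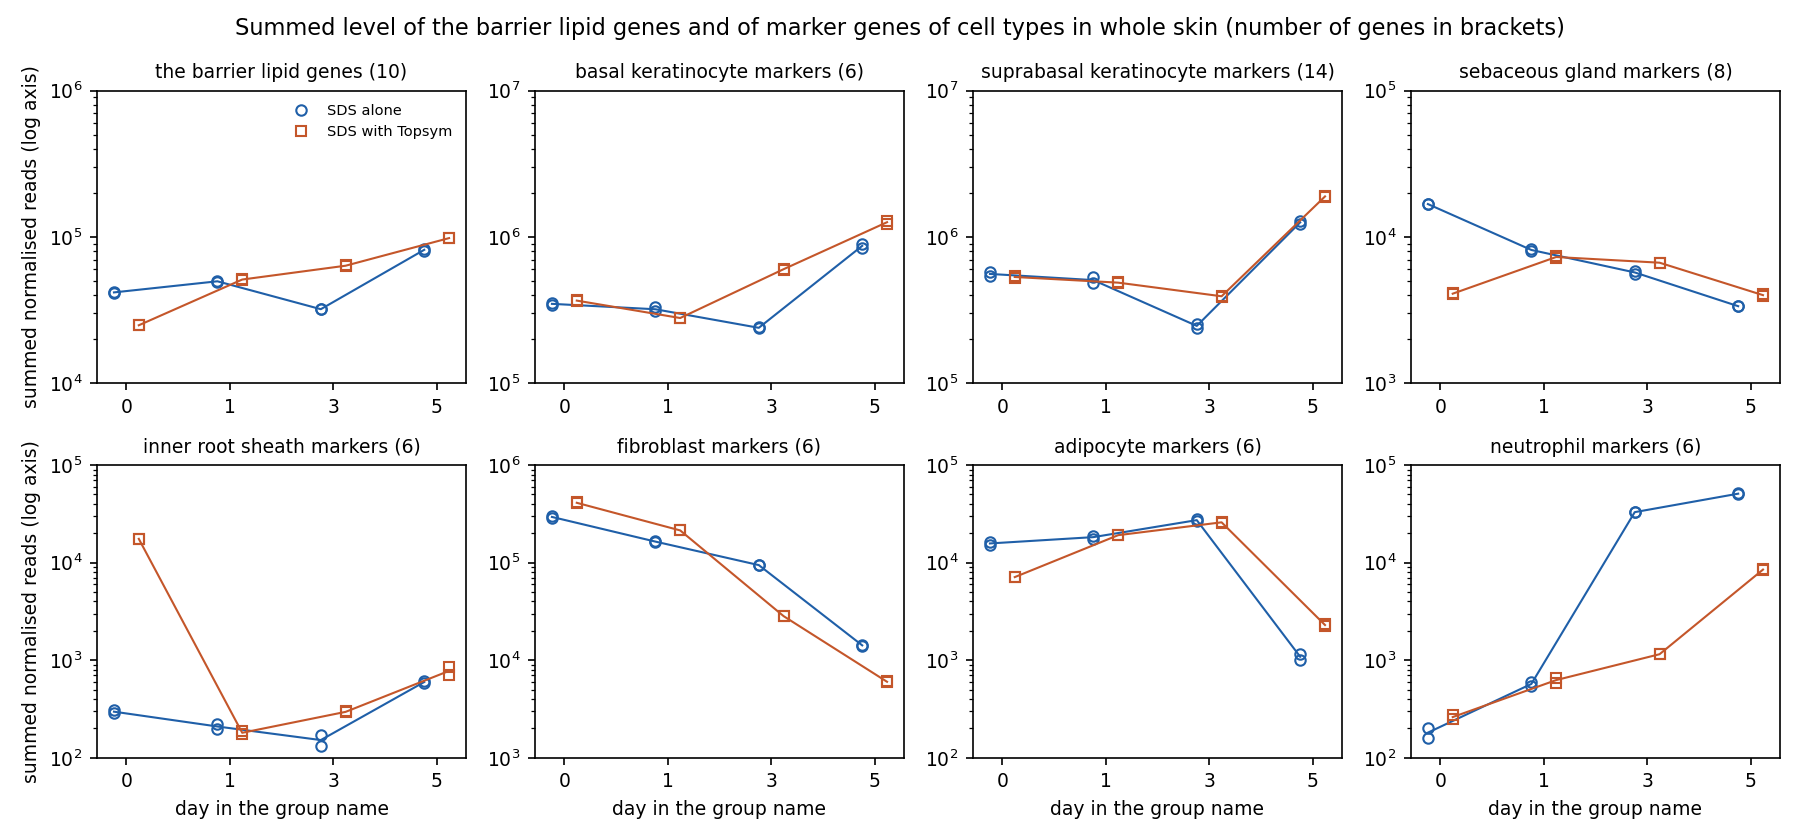
Summed normalised reads (log axis) of the 10 barrier lipid genes and of marker genes of 7 cell types in each library (points), with lines through the group means, against the day in the group name. Inner root sheath markers stand apart in SDS_D0+Topsym. Neutrophil markers are highest at days 3 and 5 of SDS alone. With Topsym they go from 248.3 and 274.7 at day 0 to 8636 and 8354 at day 5.

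Per kilobase of exon, the only scale on which levels are compared between genes here, the elongases were the most abundant of the 10. At day 0 of SDS alone Elovl4 had 6437 normalised reads per kilobase, Elovl1 2877 and Alox12b 1060. Cyp4f39 followed with 542, then Aloxe3 (352), Ugcg (312), Abca12 (303), Cers3 (293) and Pnpla1 (189), and Degs2 came last with 24.9. At day 5 with Topsym the order was again headed by Elovl4 (9159) and Elovl1 (8504), while Degs2 stood at 1602, above Abca12 (942), Pnpla1 (733), Ugcg (608) and Aloxe3 (414).

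Elovl4 makes the longest fatty acid chains of the acylceramides. In SDS alone its normalised reads in the 2 libraries of each day were 20242 and 18718 at day 0, 12946 and 14037 at day 1, 10468 and 10584 at day 3 and 25727 and 24814 at day 5. With Topsym they were 6749 and 6331, 14967 and 15278, 23464 and 22227 and 27093 and 28339. The arms began far apart: SDS_D0+Topsym was the lowest of the 8 groups and SDS_D0 the fourth highest, and no neighbouring groups in the order of levels overlapped. From day 0 the gene fell in SDS alone at day 1 (log2 -0.53, SE 0.052, adjusted p = 8.28e-07, by limma with Benjamini-Hochberg adjustment over all genes tested, as for every adjusted p in this section) and at day 3 (log2 -0.89, SE 0.052, adjusted p = 3.94e-10). It rose at both days with Topsym (1.21 and 1.80). The difference between the day 0 groups was log2 -1.57, SE 0.052, adjusted p = 1.6e-12, so the larger change with Topsym starts from a lower level, and at day 1 the arms differed by 0.17 (adjusted p = 0.0554). Sebaceous gland markers, which were also lower in SDS_D0+Topsym, moved with this gene at day 0, and their part in it was not tested.

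Elovl1 lengthens saturated and monounsaturated chains before Elovl4 takes over. Its libraries held 7384 and 8303 normalised reads at day 0 of SDS alone, 12019 and 11365 at day 1, 7369 and 7332 at day 3 and 14778 and 13541 at day 5. In the Topsym arm the values were 6667 and 7134, 12813 and 12716, 12363 and 12224 and 23874 and 22490. Day 3 of SDS alone lay just under the lower library of day 0, whereas with Topsym days 1 and 3 were close together and day 5 was well above both. At day 5 Elovl1 was 1.64-fold higher with Topsym than without (log2 0.71, SE 0.058, adjusted p = 6.13e-08), the largest log2 difference among the members called on that day. The ratio of Elovl4 to Elovl1 per kilobase was 2.47 and 2.03 at day 0 of SDS alone and 0.912 and 0.799 at day 0 with Topsym. From day 1 on it stayed between 0.97 and 1.71 in all 12 libraries.

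Cyp4f39 is the cytochrome that hydroxylates the far end of the ultra-long chain, the site to which linoleate is later attached. It held 1498 and 1598, 1837 and 1793, 1355 and 1254 and 3642 and 3760 normalised reads at days 0, 1, 3 and 5 of SDS alone. The corresponding pairs with Topsym were 1078 and 1164, 1902 and 1733, 2855 and 2909 and 6186 and 5705. The day 1 groups of both arms overlapped, and at days 3 and 5 both Topsym libraries were above both others. The difference was log2 1.14, SE 0.065, adjusted p = 4.12e-10 at day 3 and log2 0.68, SE 0.065, adjusted p = 3.57e-07 at day 5. With Topsym it rose by 2.41 on the log2 scale from day 0 to day 5, and in SDS alone by 1.26.

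Cers3 is the ceramide synthase that joins ultra-long fatty acids to the sphingoid base. Its pairs of libraries were at 980.4 and 927, 1998 and 2061, 1463 and 1407 and 5733 and 5550 normalised reads on the 4 days of SDS alone. With Topsym the same days gave 757 and 778, 1943 and 1989, 3537 and 3699 and 5819 and 6151. No neighbouring groups in the order of levels overlapped, and day 3 of SDS alone was the point at which the arms parted most. There Cers3 was 2.52-fold higher with Topsym (log2 1.33, SE 0.054, adjusted p = 6.79e-12). From day 0 to day 5 it rose 5.92-fold in SDS alone (log2 2.56, SE 0.054, adjusted p = 3.24e-16) and 7.8-fold with Topsym (log2 2.96, SE 0.054, adjusted p = 3.77e-17), after Degs2 the largest rise of the 10 in both arms.

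Pnpla1 transfers linoleate from triglyceride to the hydroxylated ceramide, the step that completes acylceramide. Day by day, SDS alone gave 942 and 889.5, 1351 and 1330, 823 and 873 and 2968 and 2894 normalised reads. SDS with Topsym gave 694 and 799, 1384 and 1372, 1546 and 1612 and 3437 and 3650. Both day 3 libraries of SDS alone were under both of day 0, but the difference did not pass the test (log2 -0.11, 95% interval -0.26 to 0.036). At day 3 Pnpla1 was 1.86-fold higher with Topsym than without (log2 0.90, SE 0.069, adjusted p = 1.6e-08). Between days 3 and 5 it rose in both arms, by 1.79 in SDS alone and 1.17 with Topsym on the log2 scale.

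Degs2 makes the phytoceramides, ceramides with an extra hydroxyl on the base, and had the widest range of the 10. Its normalised reads were 49.3 and 79.3 at day 0 of SDS alone, 91.3 and 127 at day 1, 370.4 and 344 at day 3 and 2820 and 3132 at day 5. The Topsym arm held 30.2 and 66.7, 247 and 242, 698 and 742 and 4500 and 3775. Unlike most of the others it did not dip at day 3 of SDS alone, and within each arm every later day was above every earlier one. The rise from day 0 to day 5 was 46.3-fold in SDS alone (log2 5.55, SE 0.27, adjusted p = 1.99e-11) and 85.5-fold with Topsym (log2 6.49, SE 0.27, adjusted p = 1.78e-12). At day 0 the libraries of a group differed by up to 53.3% of their mean (SD, n = 2), and the SE of the gene, 0.27, was the widest of the 10. At day 1 it was higher with Topsym by log2 1.18, SE 0.27, adjusted p = 0.00993, a call that was lost when SDS_D1 replicate 1 (log2 0.94, adjusted p = 0.138), SDS_D1+Topsym replicate 1 (1.16, 0.0767) or SDS_D1+Topsym replicate 2 (1.19, 0.0669) was left out.

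Ugcg is the glucosylceramide synthase, which glucosylates ceramides for storage in lamellar granules. Across the days its libraries held 1748 and 1509, 1956 and 2151, 2371 and 2245 and 3927 and 3587 normalised reads in SDS alone. They held 1448 and 1232, 2035 and 2180, 3399 and 3561 and 3110 and 3230 with Topsym. Day 3 with Topsym was the second highest of the 8 groups, above day 5 of the same arm in both libraries, and the change from day 3 to day 5 there did not pass the test (log2 -0.13, 95% interval -0.31 to 0.043). Ugcg was the single member called lower with Topsym at day 5 (log2 -0.24, SE 0.083, adjusted p = 0.0248); the call was lost without SDS_D5 replicate 1 (log2 -0.18, adjusted p = 0.176) or SDS_D5+Topsym replicate 1 (-0.22, 0.106). At day 3 it was higher with Topsym by log2 0.59, SE 0.083, adjusted p = 1.94e-05.

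Abca12 pumps glucosylceramide into lamellar granules, and its loss causes harlequin ichthyosis. In SDS alone it stood at 4596 and 4384, 7196 and 7699, 4434 and 4700 and 13063 and 13038 normalised reads. With Topsym it stood at 3708 and 3500, 7138 and 7048, 10339 and 10156 and 13477 and 14424. Days 0 and 3 of SDS alone overlapped, and the log2 change between them, which turned negative with equal library totals (-0.050), was 0.024 (95% interval -0.082 to 0.13, adjusted p = 0.722). At day 3 the gene was 2.24-fold higher with Topsym (log2 1.17, SE 0.050, adjusted p = 1.51e-11). At day 5 the arms differed by 0.095 (95% interval -0.011 to 0.20), which did not pass the test and turned to -0.14 with equal library totals.

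Alox12b and Aloxe3 act one after the other on the linoleate of acylceramide: the first is a lipoxygenase that makes the hydroperoxide, the second isomerises it. Alox12b held 2518 and 2636, 5249 and 5223, 2035 and 1925 and 7464 and 7327 normalised reads on the days of SDS alone, and 1950 and 1981, 4794 and 4904, 4143 and 3946 and 7983 and 7632 with Topsym. Aloxe3 held 2205 and 2294, 4528 and 4488, 1428 and 1340 and 2709 and 2691 in SDS alone, and 1898 and 1828, 3941 and 3606, 1768 and 1873 and 2676 and 2626 with Topsym. Both genes had more reads at day 1 than at days 0 and 3 in both arms, but Alox12b was highest at day 5 and Aloxe3 at day 1. Aloxe3 fell under its day 0 level at day 3 of SDS alone (log2 -0.70, SE 0.056, adjusted p = 1.99e-08), as did Alox12b (log2 -0.38, SE 0.047, adjusted p = 4.08e-06). Within a library, the ratio of Alox12b to Aloxe3 per kilobase was 3.01 and 3.02 at day 0 of SDS alone and 7.25 and 7.16 at day 5, and with Topsym it went from 2.70 and 2.85 to 7.85 and 7.65. This ratio does not depend on how the libraries are scaled.

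**Figure D3:**
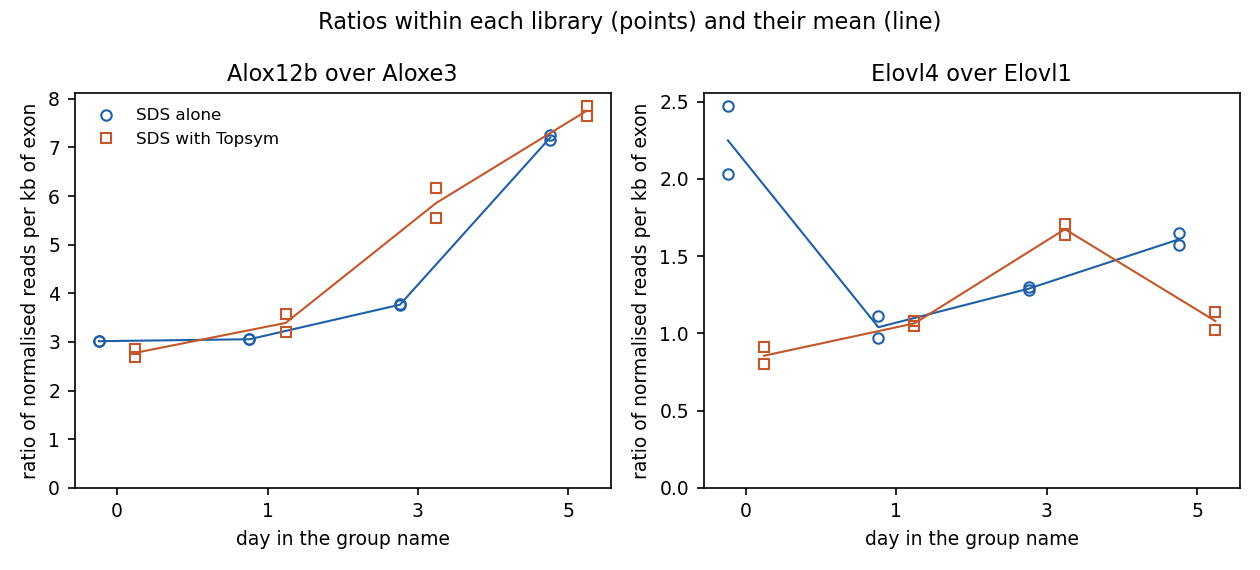
Ratio of normalised reads per kilobase of exon within each library (points; vertical axes from 0), with lines through the means, for Alox12b over Aloxe3 and for Elovl4 over Elovl1, against the day in the group name. The first ratio is above 7 in all 4 libraries of day 5, and the second is highest, at 2.03 and 2.47, at day 0 of SDS alone.

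At day 1 of SDS alone, 9 of the 10 genes were higher than at day 0 and Elovl4 was lower, with log2 changes of -0.53 to 1.09 and a median of 0.65. Over all genes tested 12.8% were called higher and 13.5% lower, with a median of -0.031. Cers3 (1.09), Alox12b (1.02) and Aloxe3 (1.00) rose the most. The rises of Cyp4f39, Degs2 and Ugcg each lost their call without certain libraries: Cyp4f39 without SDS_D0 replicate 1 (log2 0.18, adjusted p = 0.13) or SDS_D1 replicate 1 (0.21, 0.0863), Degs2 without SDS_D0 replicate 1 (0.43, 0.394) or SDS_D1 replicate 2 (0.54, 0.313), and Ugcg without SDS_D0 replicate 2 (0.23, 0.106) or SDS_D1 replicate 2 (0.27, 0.0845). The call of Degs2 was also lost with no filter on low values (adjusted p = 0.0862), with a robust prior (0.097) and in a fit of only the libraries compared (0.173), the last of which also ended that of Ugcg (0.0728).

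At day 3 of SDS alone, 3 genes were above day 0, 4 were below it and 3 did not pass the test, with a median log2 change of -0.10. The background was 25.4% called higher and 24.2% called lower, with a median of -0.0054, so neither count of the 10 stands far from it. Degs2 (2.49), Cers3 (0.59) and Ugcg (0.51) were higher. Elovl4 (-0.89), Aloxe3 (-0.70), Alox12b (-0.38) and Cyp4f39 (-0.25) were lower, the last losing its call without SDS_D0 replicate 2 (log2 -0.20, adjusted p = 0.0541) or SDS_D3 replicate 2 (-0.19, 0.0643). Elovl1 did not pass the test (log2 -0.091) and was called lower without SDS_D0 replicate 1 (-0.18, 0.0329) and, like Pnpla1, with equal library totals (-0.17 and -0.18). Of 14 suprabasal keratinocyte markers 10 were lower, 2 were higher and the median was -0.68. Summed over 6 neutrophil markers the level went from 161 and 201 to 33075 and 32808. The part of these shifts in the members' levels was not tested.

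By day 5 of SDS alone all 10 genes were above day 0, with log2 changes of 0.26 (Aloxe3) to 5.55 (Degs2) and a median of 1.39. Of all genes tested 30.7% were called higher and 35.8% lower, and their median was -0.094. Against day 3, all 10 were again higher, with a median of 1.51, beside 28.9% higher and 34.5% lower among all genes (median -0.068). The step from day 3 to day 5 was smallest for Ugcg (0.70) and largest for Degs2 (3.05), with Cers3 (1.97) and Alox12b (1.90) next. When each library was scaled to the same total instead, the median of all genes moved by -0.33 in the comparison with day 0, Aloxe3 turned to -0.068 and Elovl4 lost its call (0.045, adjusted p = 0.48). Of 14 suprabasal markers 12 were higher and 1 lower at day 5 than at day 0 (median 1.21), among the higher Flg, whose product binds keratin filaments, which went from 3904 and 3956 to 43105 and 42473. The 14 summed to 543069 and 573545 at day 0 and 1227055 and 1286099 at day 5, and the members to 42163 and 41337 and 82830 and 80333. Summed skeletal muscle markers fell from 397893 and 392446 to 71881 and 75476. The part of cell content in the members' rise was not tested.

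With Topsym, all 10 genes were higher at day 1 than at day 0, by 0.66 (Ugcg) to 2.42 (Degs2) and a median of 1.00. The background of this comparison was 20.3% higher and 20.5% lower, with a median of -0.030. At day 3, 9 of the 10 were higher (median 1.37) and Aloxe3 did not pass the test (log2 -0.033, 95% interval -0.15 to 0.086), where 27% of all genes were higher and 28.2% lower (median -0.041). Besides Degs2 (3.97), the largest rises at day 3 were those of Cers3 (2.24), Elovl4 (1.80) and Abca12 (1.51). These changes start from the SDS_D0+Topsym group, whose inner root sheath, sebaceous, muscle and fat markers are given above.

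At day 5 with Topsym all 10 genes were above day 0, with a median log2 change of 2.04, against 32.8% of all genes higher and 37.5% lower (median -0.078). The range ran from 0.51 for Aloxe3, which became -0.074 with equal library totals, to 6.49 for Degs2. From day 3 to day 5, 9 rose and Ugcg did not pass the test (median 0.82), beside 27.1% higher and 35.1% lower among all genes (median -0.13). In that step, equal library totals moved the median of all genes by -0.48 and turned Abca12 from 0.44 to -0.056 and Elovl4 from 0.28 to -0.22; Aloxe3 lost its call (0.042) and Ugcg was called lower (-0.63). Degs2 (2.52), Pnpla1 (1.17) and Cyp4f39 (1.04) had the largest rises between those days. From day 0 to day 5 of this arm, 12 of the 14 suprabasal markers were higher and 2 lower (median 2.21). The part of cell content in the members' rise was not tested.

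**Figure D4:**
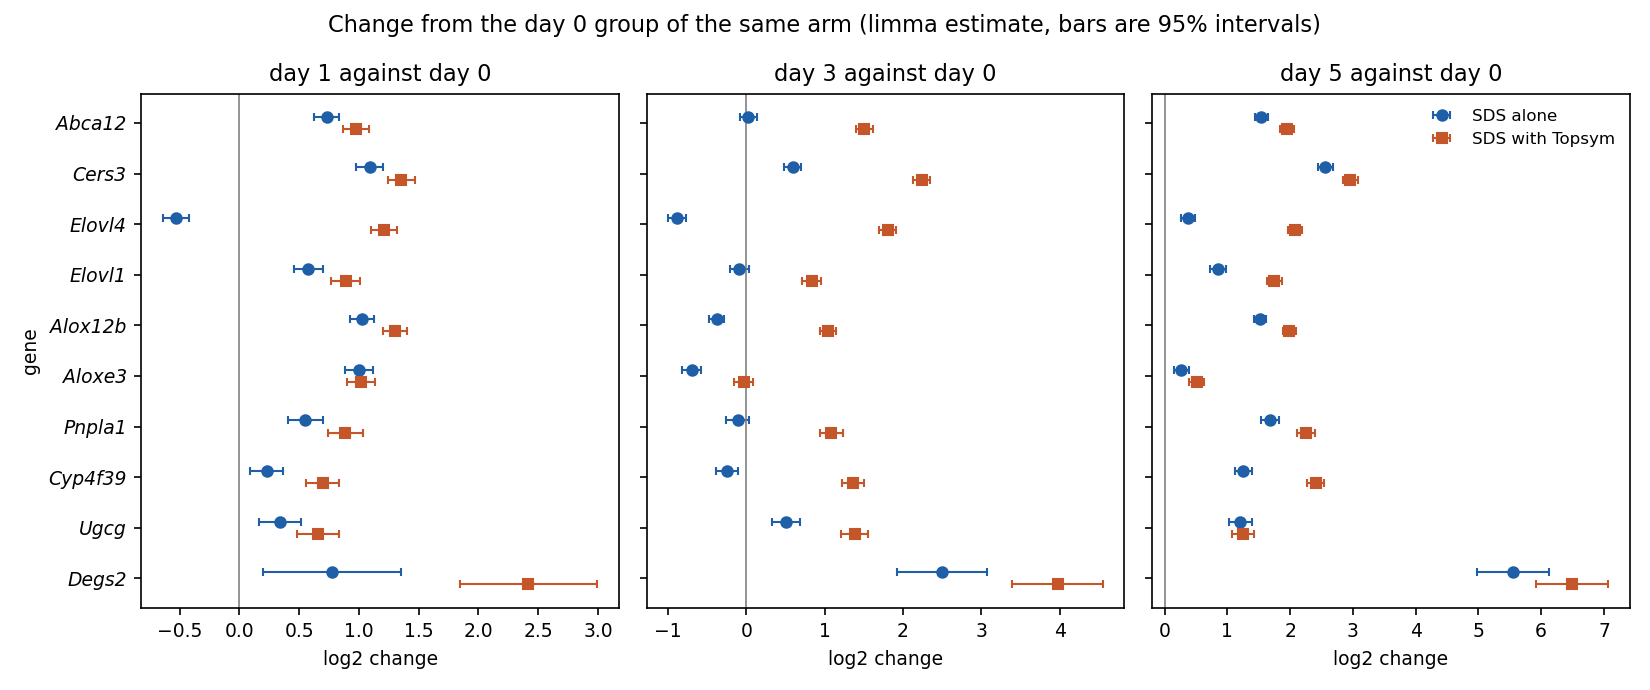
Log2 change (horizontal axes, whose ranges differ by panel) from the day 0 group of the same arm at days 1, 3 and 5, for SDS alone and SDS with Topsym; bars are 95% intervals from the limma fit. At day 3 the estimates of SDS alone for Elovl4, Alox12b, Aloxe3 and Cyp4f39 lie under 0 and those with Topsym, save Aloxe3, above it; the positive day 5 estimates of Aloxe3 turn negative when libraries are scaled to equal totals.

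The direct comparison of Topsym with none on the same day asks whether the preparation goes with another level of these genes. At day 0, 9 of the 10 were lower in the Topsym group and Degs2 did not pass the test, with a median of -0.32, where 10.8% of all genes were higher and 11.2% lower (median -0.0036). Apart from Elovl4 (-1.57), the differences were small, from -0.47 (Cyp4f39) to -0.18 (Elovl1). Elovl1 lost its call without SDS_D0 replicate 2 (log2 -0.099, adjusted p = 0.346) or SDS_D0+Topsym replicate 1 (-0.13, 0.254). Pnpla1 lost its call without SDS_D0 replicate 1 (-0.26, 0.0552) or SDS_D0+Topsym replicate 1 (-0.20, 0.0671), and Ugcg without SDS_D0 replicate 1 (-0.18, 0.271) or SDS_D0+Topsym replicate 2 (-0.17, 0.307). Without SDS_D0+Topsym replicate 2, Degs2 was called lower (-1.03, 0.0126). In a fit of only the 4 libraries Elovl1 (adjusted p = 0.177), Pnpla1 (0.0942) and Ugcg (0.165) were not called, and Elovl1 was not called with no filter (0.0548) or with equal library totals (0.0509).

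At day 1 few members differed between the arms. Degs2 was higher with Topsym and Aloxe3 lower, the other 8 did not pass the test, and the median was 0.019, beside 5.51% of all genes higher and 4.29% lower (median 0). For the 8, the 95% intervals of the log2 difference lay between -0.21 and 0.28. Aloxe3, at log2 -0.26, SE 0.056, adjusted p = 0.00653, lost its call in a fit of only the 4 libraries (adjusted p = 0.0566) and without SDS_D1 replicate 1 (log2 -0.25, adjusted p = 0.0552) or SDS_D1+Topsym replicate 2 (-0.19, 0.133). Elovl4 (0.17) was called higher without SDS_D1 replicate 2 (0.22, 0.0352), with a pseudocount of 4 (0.0487), with a robust prior (0.033) and with DESeq2 (0.0125).

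At day 3 all 10 genes were higher with Topsym, by 0.40 (Aloxe3) to 1.33 (Cers3), with a median of 1.02. Among all genes 20.8% were higher and 22.9% lower, with a median of -0.040. In each of the 10 both Topsym libraries lay above both libraries of SDS alone, and leaving out any of the 4 libraries kept all 10 calls. Cers3, Abca12 (1.17), Cyp4f39 (1.14) and Elovl4 (1.12) differed the most. Markers of other cells moved too: summed neutrophil markers were 33075 and 32808 without Topsym and 1160 and 1147 with it, and summed fibroblast markers 93899 and 95021 and 28167 and 28468. Of the 14 suprabasal markers 13 were higher with Topsym (median 1.14), with Ivl at 6167 and 6338 without Topsym and 16376 and 16989 with it, while Lor, the exception, was at 66576 and 58584 and 41307 and 35763. Of the 6 basal markers 5 were higher (median 1.16). The members' median lay near those of the keratinocyte markers, and the part of cell content in it was not tested.

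At day 5, 4 genes were higher with Topsym, Ugcg was lower and 5 did not pass the test, with a median of 0.11; 22.6% of all genes were higher and 24.2% lower (median -0.0094). Elovl1 (0.71), Cyp4f39 (0.68), Pnpla1 (0.27) and Elovl4 (0.13) were the higher ones. Elovl4 lost its call without SDS_D5 replicate 1 (log2 0.16, adjusted p = 0.0609), SDS_D5 replicate 2 (0.11, 0.20) or SDS_D5+Topsym replicate 2 (0.10, 0.216), with no filter (adjusted p = 0.0704), with TMM scaling (0.0512) and in a fit of only the 4 libraries (0.13), which also ended the call of Ugcg (0.0814). Degs2 (log2 0.47) was called higher by edgeR on the recovered reads (adjusted p = 0.00207). Scaling to equal totals moved the median of all genes by -0.23 here, after which 2 of the 10 were higher and 5 lower: it turned Elovl4 to -0.098, Abca12 to -0.14, Cers3 to -0.15 and Alox12b to -0.15, ended the call of Pnpla1 (0.042) and made Aloxe3 lower (-0.26). The 14 suprabasal markers had a median of 0.54, 10 of them higher, 3 lower.

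**Figure D5:**
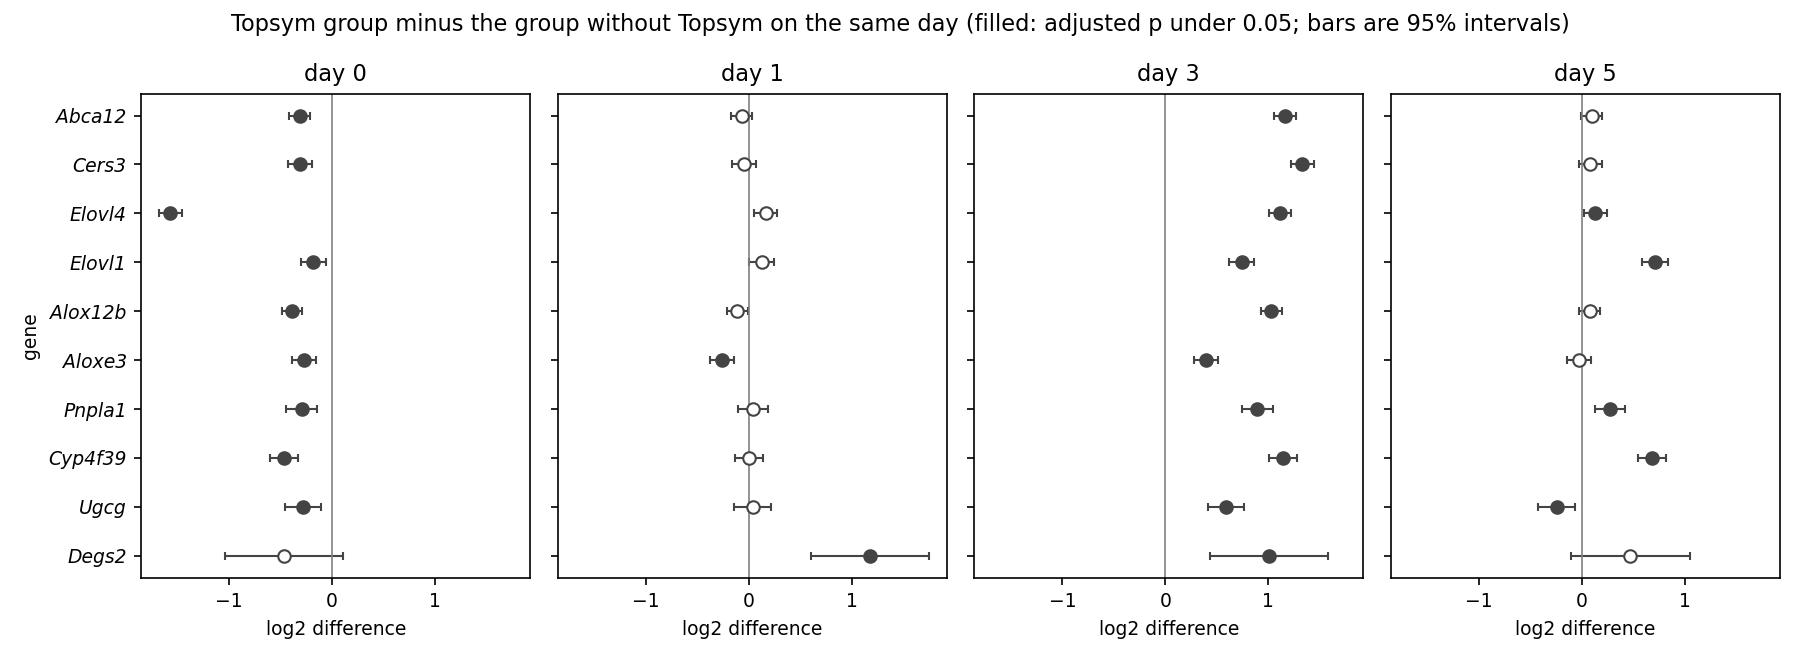
Log2 difference of the Topsym group from the group without Topsym at days 0, 1, 3 and 5 for the 10 genes; bars are 95% intervals, and filled points passed an adjusted p of 0.05. All 10 points are filled and above 0 at day 3, and 9 are filled and below 0 at day 0; at day 5 the small positive values of Elovl4, Abca12, Cers3 and Alox12b turn negative when libraries are scaled to equal totals.

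The difference between the arms in their change from day 0 was tested directly. It was positive for 8 of the 10 at day 1 (median 0.32, with 9.18% of all genes higher and 8.06% lower and their median at -0.016), for 10 at day 3 (median 1.45, with 19.5% and 19.5% and -0.0084) and for 8 at day 5 (median 0.52, with 17.3% and 17.7% and 0.0039). These 3 tests share both day 0 groups, in which 9 of the 10 members were lower with Topsym (median log2 -0.32). Each value therefore holds that day 0 difference as well as the difference on the later day. On the later days themselves the median difference between the arms was 0.019 at day 1, 1.02 at day 3 and 0.11 at day 5. Elovl4 had the largest value at each day, 1.74, 2.69 and 1.71, followed at day 3 by Cers3 (1.65) and Cyp4f39 (1.61). At day 1 Aloxe3 (0.014) and Ugcg (0.32) did not pass, and at day 5 Ugcg (0.038) and Degs2 (0.94) did not.

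Several of these calls changed when 1 library was left out, which leaves a group of 1 and so widens the SE. A lost call therefore need not mean that the library left out set the value. Degs2 kept its call but moved from 1.65 to 1.09 at day 1 and from 1.48 to 0.92 at day 3 without SDS_D0+Topsym replicate 1. At day 1, Pnpla1 lost its call without either library of SDS_D1 or of SDS_D1+Topsym, without SDS_D0 replicate 1 and without SDS_D0+Topsym replicate 1 (log2 0.24 to 0.35). Abca12 lost it without SDS_D0 replicate 1, SDS_D1 replicate 1, SDS_D0+Topsym replicate 2 or either library of SDS_D1+Topsym (0.20 to 0.26). Cers3 did so without SDS_D0 replicate 1, SDS_D1 replicate 1, SDS_D0+Topsym replicate 1 or SDS_D1+Topsym replicate 2 (0.23 to 0.25), and Elovl1 without SDS_D0 replicate 2, SDS_D1 replicate 2, SDS_D0+Topsym replicate 1 or SDS_D1+Topsym replicate 1 (0.23 to 0.30). Ugcg gained a call without SDS_D0 replicate 2 (0.43) or SDS_D0+Topsym replicate 1 (0.44). At day 5, Aloxe3 (0.25) lost its call without SDS_D0 replicate 2, SDS_D5 replicate 2, SDS_D0+Topsym replicate 2 or SDS_D5+Topsym replicate 1 (0.22 to 0.24), and Degs2 gained one without SDS_D0 replicate 1 (1.28) or SDS_D0+Topsym replicate 2 (1.501). With equal library totals Abca12 (0.19), Cers3 (0.21) and Pnpla1 (0.28) were not called at day 1, nor Abca12 (0.16), Cers3 (0.15) and Aloxe3, which turned to -0.0065, at day 5. Only the libraries compared left Pnpla1 (adjusted p = 0.0524) and Degs2 (0.0628) uncalled at day 1; DESeq2 called Ugcg there (0.032), and edgeR called Degs2 at day 5 (0.0292).

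Genes that work beside the 10 were followed as a list of 10 partners. At day 5 against day 0, 7 of them rose and 1 fell in SDS alone (median log2 1.40), and the counts were the same with Topsym (median 1.90). Among all genes tested 30.7% were higher and 35.8% lower in SDS alone, and 32.8% and 37.5% with Topsym. Tgm1, the transglutaminase that crosslinks the cornified envelope, was at 2068 and 2172 at day 0, 3142 and 3017 at day 3 and 11695 and 11744 at day 5 of SDS alone, and at 1769 and 1740, 7092 and 6948 and 13808 and 12686 with Topsym. Sdr9c7, a dehydrogenase that acts after the lipoxygenases, rose by 2.30 in SDS alone and 3.05 with Topsym. At day 3, 5 of the 10 partners were higher with Topsym and none was lower, led by Tgm1 (log2 1.19, SE 0.049, adjusted p = 9.05e-12), Ephx3, an epoxide hydrolase (1.16), and Sdr9c7 (1.00). Over all genes 20.8% were higher and 22.9% lower in that comparison. Of the other partners, Slc27a4, a fatty acid transport protein, stood at 8476 and 8727 at day 5 of SDS alone and 11760 and 11063 with Topsym. Nipal4, a membrane protein of the barrier, and Abhd5, a coactivator of Pnpla1, were at 6614 and 6271 and 4305 and 3955 at day 5 of SDS alone, from 1920 and 1874 and 1193 and 1176 at day 0.

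Fa2h, the enzyme that hydroxylates the fatty acid next to the carboxyl group and a gene also known from sebaceous glands, was the partner that fell at day 5. Its libraries held 7869 and 8164 normalised reads at day 0 of SDS alone and 2384 and 2401, 1122 and 1161 and 1436 and 1239 at days 1, 3 and 5. With Topsym the day 0 level was already low, 1516 and 1339, and the later days gave 2083 and 2254, 1284 and 1310 and 1111 and 976. SDS_D0 thus stood apart from all 7 other groups, as it did for Cers4, another ceramide synthase (3426 and 3300 against 784 and 811 at day 0), and for Elovl6, which elongates shorter saturated chains (12425 and 12153 against 2458 and 2461). Among the members, Elovl4 alone had such a gap between the day 0 groups (log2 -1.57), and at day 5 its level in SDS alone was above that of SDS_D0. The summed sebaceous markers fell from 16849 and 16661 to 3375 and 3347 over the days of SDS alone, and their part in these values was not tested.

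The earlier steps of ceramide synthesis held genes that rose and genes that fell. Of 15 genes of sphingoid base and ceramide synthesis, 7 were higher and 5 lower at day 5 than at day 0 of SDS alone (median log2 0.14), and 7 higher and 5 lower with Topsym (median -0.0099). The shares of all genes were 30.7% higher and 35.8% lower in SDS alone and 32.8% and 37.5% with Topsym. The counts of lower genes lie near those shares. Scaling to equal totals moved the median of all genes by -0.33 and -0.57 in these comparisons, more than either median. Degs1, the general dihydroceramide desaturase, rose from 2094 and 2077 to 12110 and 11951 in SDS alone (2.53) and from 1970 and 1863 to 10548 and 10309 with Topsym (2.44). Sptlc1, a subunit of the first enzyme of the pathway, rose by 1.47 and 1.72. At day 3 with Topsym against none, 5 were higher and 3 lower, with Sptlc3, another subunit of that enzyme, at 1.11 and Sptssa, its small activating subunit, at 0.87. Neither count stands far from the 20.8% higher and 22.9% lower among all genes.

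Fatty acid elongation genes other than the 2 members gave 10 that could be tested of 11 listed. In SDS alone, 7 were lower and 1 higher at day 1, and 6 lower and 2 higher at day 3. Among all genes tested 13.5% were lower and 12.8% higher at day 1, and 24.2% and 25.4% at day 3. On the log2 scale Elovl6 changed by -3.02 and Elovl5, which elongates polyunsaturated chains, by -1.49 at day 3, while Elovl7 rose by 1.93 at day 5. At day 3, 6 of the 10 were higher with Topsym than without and 1 was lower, beside 20.8% and 22.9% of all genes. Among the higher ones were Elovl7 (1.24) and Hsd17b12, the ketoreductase of the elongation cycle (0.69). Tecr, which catalyses the last step of the cycle, was 1.95-fold higher with Topsym at day 5 (log2 0.97, SE 0.052, adjusted p = 5.03e-10).

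Genes that break down or convert ceramides formed a list of 16. At day 5 of SDS alone 8 were higher and 5 lower than at day 0 (median 0.15), and with Topsym 9 were higher and 5 lower (median 0.48), medians that are also smaller than the shift of all genes under equal totals. The shares of all genes were 30.7% higher and 35.8% lower in SDS alone and 32.8% and 37.5% with Topsym, so the counts of lower genes lie near them. Smpd1, the acid sphingomyelinase, rose by 1.58 and 2.56 in SDS alone and with Topsym. Acer1, the alkaline ceramidase of the epidermis, fell at day 3 in SDS alone (-2.02) and with Topsym (-1.32). At day 3, 4 of the 16 were higher with Topsym and 9 lower, with Sgms2, a sphingomyelin synthase, at -1.93 and Asah2, a neutral ceramidase, at 1.15. Over all genes 20.8% were higher and 22.9% lower, so the count of higher ones lies near that share.

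Of 14 regulators of epidermal differentiation, 11 were higher and 2 lower with Topsym at day 3 (median 0.64), beside 20.8% and 22.9% of all genes. Grhl3, a Grainyhead factor of barrier formation, held 1632 and 1640, 2852 and 2629, 1724 and 1712 and 3245 and 3337 normalised reads across SDS alone and 1578 and 1527, 2872 and 2973, 4527 and 4674 and 6789 and 6759 with Topsym. It shared with most of the 10 the rise at day 1 and the return at day 3 of SDS alone (log2 1.42, SE 0.050, adjusted p = 1.5e-12 for Topsym against none at day 3). Ovol1, a zinc finger factor, was higher with Topsym by 1.19 at day 3 and 1.54 at day 5. In SDS alone at day 3, 8 of the 14 were below day 0 and 4 above, among them Gata3 (-1.72) and Pou2f3 (-1.36) below and Ppard, a lipid-sensing receptor, above (0.86). The shares of all genes there were 24.2% lower and 25.4% higher.

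Across the 16 libraries, the members other than Aloxe3 tracked their common mean closely. The Pearson r of each gene's log2 level with the mean of the 10 standardised levels was 0.989 for Abca12, 0.981 for Pnpla1, 0.974 for Cers3, 0.959 for Cyp4f39, 0.952 for Alox12b and 0.951 for Elovl1. It was 0.883 for Degs2, 0.86 for Elovl4, 0.858 for Ugcg and 0.409 for Aloxe3, and each gene is itself a part of that mean. These are descriptions, with no test, and the 16 libraries share 8 groups. Aloxe3 had r of 0.0024 with Degs2 and 0.019 with Ugcg.

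Outside the 10, the 8 genes whose log2 level was most like the mean of the members over the 16 libraries were Mpzl3 (r = 0.993), Cpa4 (0.993), Ceacam19 (0.990), Ephx3 (0.986), Abhd12b (0.984), Cdsn (0.981), Sdr9c7 (0.980) and Ide (0.980). Ephx3 and Sdr9c7 are on the list of partners, and Cdsn encodes corneodesmosin, an adhesion protein of the outer epidermis. For single members the most alike gene was Tgm1 for Cers3 (r = 0.996), Sdr9c7 for Pnpla1 (0.992), Mpzl3 for Abca12 (0.992), Spag1 for Alox12b (0.989) and Atp11b for Ugcg (0.988). For Cyp4f39 it was Desi1 (0.985), for Elovl1 Asprv1 (0.982), a protease that processes filaggrin, for Elovl4 Hsd17b12 (0.978) and for Aloxe3 Adh6b (0.939). Hsd17b12 had group means of 3038, 2559, 2373 and 3953 normalised reads across SDS alone and 1563, 2600, 3825 and 3814 with Topsym, which follows Elovl4 in its low day 0 level with Topsym and its fall in SDS alone.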

How the data were processed

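Total RNA of whole skin was extracted with the RNeasy Micro kit and made into strand-specific libraries, per the labels' protocols. The submitters' processing notes name Trim Galore 0.6.7, HISAT2 2.2.1, featureCounts 2.0.3, DESeq2 2.11.40.8 and the build mm10. The authors deposited a table of normalised values, a signal of reads divided by a size factor per library; each library's values were whole multiples of a single step within a relative tolerance of 0.0001 (100% of values), which gave back the reads. Groups were taken from the sample titles, because the series' design text describes another experiment, not analysed here. Columns of values without a sample numbered 0.

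Tests used limma 3.58.1 (trend) in R 4.3.3 on log2(value + 1), so fold changes are on that scale and understate low genes, over the 19189 genes that reached 10 in 2 or more libraries. A single fit of 8 group means to all 16 libraries (8 residual degrees of freedom) gave 15 comparisons, adjusted by Benjamini-Hochberg with a threshold of 0.05; intervals are 95%. Fold values are ratios of group means. Alternatives were TMM scaling, no filter, a pseudocount of 4, a fit of only the libraries compared, a robust prior, a replicate block, edgeR 4.0.16 and DESeq2 1.42.0 on the recovered reads, each library left out in turn, and, chosen after seeing the data, scaling to equal library totals. Values count reads, not molecules, and each SE comes from the spread between libraries. Libraries of a group differed by more than sampling noise (chi-square per degree of freedom 3.13 to 7.00), so none was counted as a copy. The scripts were tested on simulated data.

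The genes, the lists of other genes and the comparisons were chosen with earlier results of these data known. The text names the 10 members in every comparison, followed genes (Tgm1, Sdr9c7, Abhd5, Nipal4, Slc27a4, Krt14, Krt10, Lor, Flg, Ivl, Fkbp5 and Tsc22d3), and, from each list and comparison, at most 3 called genes with the largest change, a mean of at least 100 and no overlap between groups; the most alike genes were the 8 with the highest r, and for each member the 1 with the highest r to it. Some results that this rule names are not reported here.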

Additional observations from a re-analysis of the deposited data

Results flagged for a closer look

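For most members the change from day 0 differed between the arms by a direct test (limma, adjusted p under 0.05), and these are the results to look at again. All of them rest on the same 2 day 0 groups, whose inner root sheath, sebaceous gland, skeletal muscle, adipocyte, endothelial and summed fibroblast markers differ. In those groups 9 of the 10 members were themselves lower with Topsym (median log2 -0.32), and each value below holds that difference too. On the later days themselves the median difference between the arms was 0.019 at day 1, 1.02 at day 3 and 0.11 at day 5. Groups of 2 libraries are too small to test a library as standing apart. At day 1 the log2 differences (Topsym arm minus SDS alone) were 1.74 for Elovl4, 1.65 for Degs2, 0.47 for Cyp4f39, 0.34 for Pnpla1, 0.31 for Elovl1, 0.28 for Alox12b, 0.27 for Cers3 and 0.25 for Abca12. At day 3 they were 2.69 for Elovl4, 1.65 for Cers3, 1.61 for Cyp4f39, 1.48 for Abca12, 1.48 for Degs2, 1.42 for Alox12b, 1.19 for Pnpla1, 0.93 for Elovl1, 0.87 for Ugcg and 0.67 for Aloxe3. At day 5 they were 1.71 for Elovl4, 1.15 for Cyp4f39, 0.90 for Elovl1, 0.57 for Pnpla1, 0.47 for Alox12b, 0.41 for Abca12, 0.40 for Cers3 and 0.25 for Aloxe3. Without SDS_D0+Topsym replicate 1 the values of Degs2 were 1.09 at day 1 and 0.92 at day 3.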

How the results depend on the processing

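Of 1350 member values recomputed under 9 alternatives other than leaving out a library, 1305 kept their side of the threshold with no call reversed, and 1297 of these kept their sign as well; with 1 library left out the counts were 666 and 652 of 720. The 14 signs that turned without 1 library, and 8 of the 17 that turned under the other alternatives, belong to values called in neither fit. The other 9, all under equal library totals, are Aloxe3 at day 5 against day 0 in SDS alone (-0.068) and with Topsym (-0.074) and in the difference between them (-0.0065), Abca12 (-0.056) and Elovl4 (-0.22) from day 3 to day 5 with Topsym, and Abca12 (-0.14), Cers3 (-0.15), Elovl4 (-0.098) and Alox12b (-0.15) for Topsym against none at day 5; the cause was not tested. That scaling left 5 members called in the difference between arms at day 1 and 5 at day 5, both 8 in the reported fit, and changed how all called genes split into higher and lower: 3874 and 9119 for day 5 against day 0 of SDS alone (reported 5897 and 6862), 3862 and 8329 against day 3 (5551 and 6623), 3129 and 10583 with Topsym (6286 and 7191), 2544 and 10205 against day 3 (5207 and 6736), 2415 and 6866 for Topsym against none at day 5 (4339 and 4637), 871 and 1044 at day 1 (1058 and 823), and 1802 and 5373 and 1512 and 2003 for the difference between arms at day 5 (3311 and 3390) and day 1 (1761 and 1546). A fit of only the 4 libraries compared, which has fewer residual degrees of freedom, called 4028 genes for Topsym against none at day 5 (8976) and 3 members (5), and 1 member (2) at day 1. Without 1 library, members called ranged from 0 to 3 and genes from 921 to 1260 (reported 1881) for Topsym against none at day 1, members from 3 to 4 at day 5, and members from 5 to 8 for the difference between arms at day 1.

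Replicate numbers are shared by the groups, but same-numbered libraries did not deviate together (r from -0.031 to 0.030 over 28 pairs of groups, none over 0.1), so the numbers name libraries and do not pair them. A fit with the replicate block kept 148 of the 150 member values on their side, with Elovl4 for Topsym against none at day 5 losing its call (log2 0.13) and Degs2 gaining one in the difference between arms at day 5 (0.94). With edgeR and DESeq2 on the recovered reads 148 of 150 were kept in each, and no member lost a call. Degs2 had mean levels of 64.3 and 48.4 normalised reads in the day 0 groups, and its difference between them was 0.089 without SDS_D0+Topsym replicate 1 and -1.03 without replicate 2.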
